A study of Mus musculus with 10 samples.

Results

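The conjugating enzymes of drug and hormone metabolism were followed in liver, as the genes of the glutathione S-transferase, UDP-glucuronosyltransferase and sulfotransferase families. Members were taken by symbol, as every row of the count table whose name begins with Gst and a class letter (a, c, m, o, p, t, k or z) and a digit, with Mgst and a digit, with Ugt1, Ugt2 or Ugt3 and a letter a or b, or with Sult and a digit. This gave 63 genes of the 24411 in the table, and their measured values played no part in the choice. The libraries came from liver homogenates of male C57BL/6 mice (C57Bl6/J in the labels) that were 8 weeks old when they began a high-fat diet together with intraperitoneal injections of an antisense oligonucleotide (ASO), a chemically modified strand that lowers the RNA it pairs with. The 5 Mboat7 ASO libraries (replicates 6 to 10, tissue labelled Severe Fatty Liver) and the 5 control ASO libraries, from mice given a non-targeting strand (replicates 1 to 5, tissue labelled Normal Liver), came after 12.5 mg/kg per week for 20 weeks. Mboat7 encodes a membrane-bound acyltransferase that attaches arachidonic acid to lysophosphatidylinositol, and the study asks how its loss bears on fatty liver disease. More than one Mboat7 ASO was used in the study, the labels do not say which was given here, and an injected ASO is not confined to the liver.

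Conjugation makes small molecules more soluble in water so that they can leave the cell and the body. Glutathione S-transferases join glutathione to reactive carbon atoms, UDP-glucuronosyltransferases in the endoplasmic reticulum attach glucuronic acid, and cytosolic sulfotransferases attach a sulfate group taken from PAPS, the active form of sulfate. Liver carries these enzymes mostly in its hepatocytes, and many of their genes lie in clusters of close copies that answer to xenobiotic sensors such as NRF2, CAR, PXR and AHR, to sex hormones and to metabolic state.

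Mboat7 itself had 92, 101, 130, 88 and 60 counts in the Mboat7 ASO libraries, against 1105, 1053, 1016, 1069 and 951 counts in the control ASO libraries (log2 fold change -3.63 ± 0.17, SE, adjusted p = 1.29e-06). Library totals ran over a narrow range, 25153235 to 28791798 counts, and a single count was worth 0.0314 to 0.0429 counts per 1e6 (CPM, scaled by the upper quartile of each library). Hepatocyte markers dominated every library, with a summed level of 105750 to 147840 CPM in Mboat7 ASO livers and 159841 to 185545 CPM in control ASO livers. Control replicate 2 stood apart from the other controls, and its leukocyte markers summed to 187 CPM, above the 177 CPM of Mboat7 ASO replicate 9, the lowest of its group. It was the highest control for 13 members and the lowest for 14. The labels number the samples without stating that each is a separate mouse, so the p-values rest on variation among libraries that may be partly technical.

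Of the 63 members, 45 reached 1 CPM in at least 1 library and were tested among 12609 genes with edgeR's quasi-likelihood test, where a gene is said to have risen or fallen at a Benjamini-Hochberg adjusted p (FDR) of 0.05 or less. Lower was the commoner direction, since 16 members fell in Mboat7 ASO livers and 5 rose, while 24 did not pass. Of the members tested 35.6% fell and 11.1% rose, where 17.3% of all genes tested fell and 21.2% rose (38.5% in either direction). The median log2 fold change (Mboat7 ASO over control ASO) was -0.20 over the members and 0.01 over all genes. Over 2-fold, 5 members fell (Gstt3, Sult1a1, Sult1e1, Sult2a7 and Sult3a1) and 1 rose (Ugt1a9), where 0.666% and 6.43% of all genes did. The groups did not overlap for 8 members that were lower in the Mboat7 ASO livers and 2 that were higher, where 10.7% and 10.5% of all genes did not overlap in those directions. Sult3a1 was the one member kept by the filter through the control ASO group alone, so its inclusion was tied to its direction.

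By family, 8 of the 19 Gst genes tested fell and 1 rose, 6 of the 9 Sult genes fell and the other 3 did not pass, 4 of the 15 Ugt genes rose and 2 fell, and the 2 Mgst genes did not pass. Summed over its members, the Sult family reached 836 ± 238 CPM in Mboat7 ASO livers and 1447 ± 321 CPM in control ASO livers (SD, n = 5 each). The Gst and Mgst genes together summed to 8676 ± 399 CPM in Mboat7 ASO livers and 10122 ± 442 CPM in control ASO livers, and the lowest control, at 9413 CPM, stood above the highest Mboat7 ASO liver, at 9224 CPM. The Ugt genes summed to 3630 ± 283 CPM in Mboat7 ASO livers and 3722 ± 221 CPM in control ASO livers, a difference smaller than the SD of either group. These sums are dominated by a few abundant genes and were not tested. The sums, and the gap between the groups for Gst and Mgst, are on the upper-quartile scale. With library totals alone the log2 difference for Gst and Mgst was -0.06, against -0.22 on that scale.

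**Figure D1:**
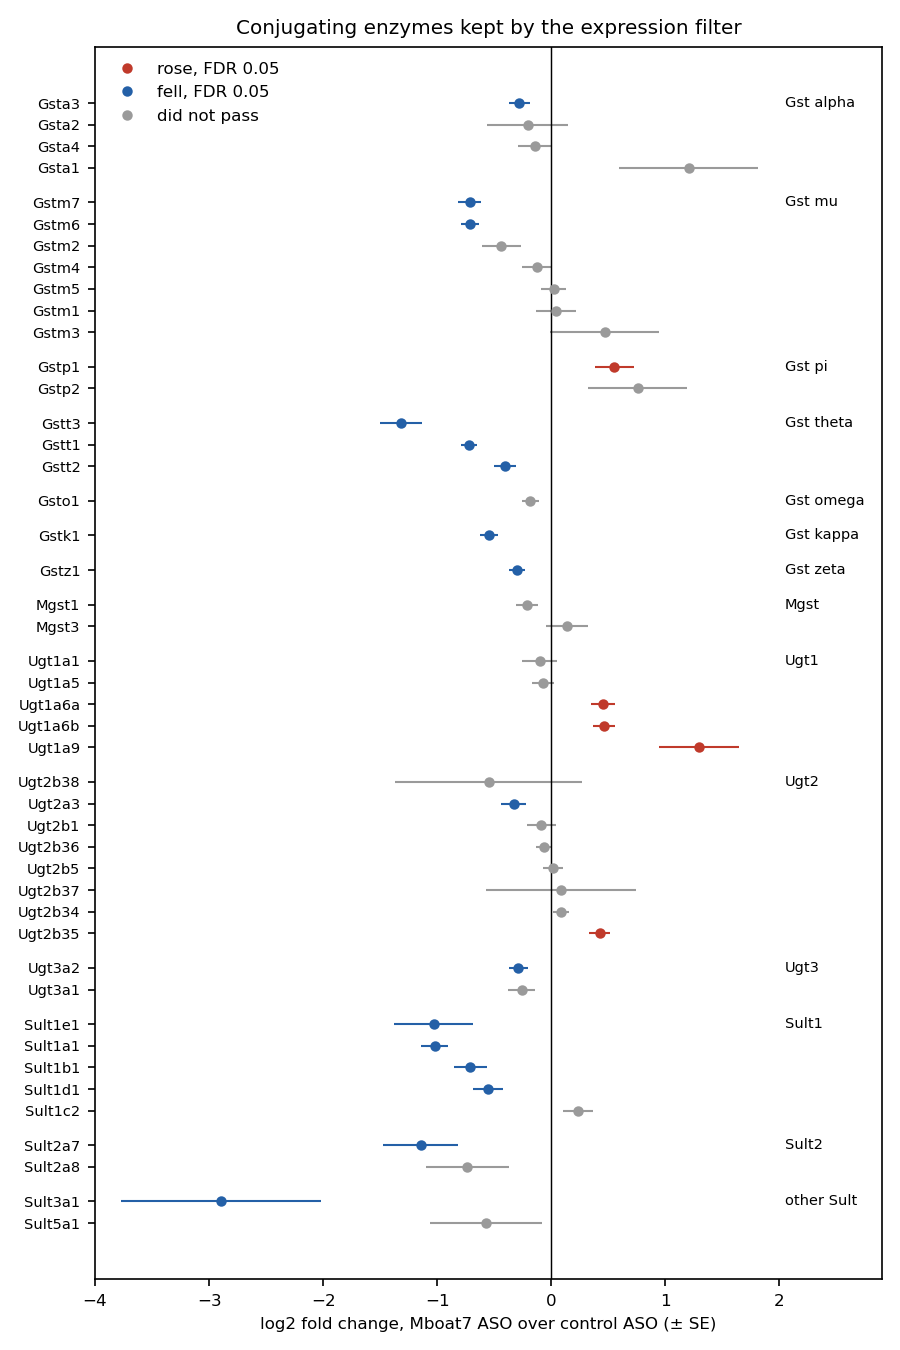
Log2 fold change (Mboat7 ASO over control ASO, horizontal axis) with its standard error for the 45 members tested, arranged by family down the page, where red marks the 5 that rose, blue the 16 that fell and grey the 24 that did not pass. The 3 theta-class Gst genes and 4 of the 5 Sult1 genes lie to the left of 0 in blue, and 3 of the 5 Ugt1 genes lie to the right in red.

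All 3 theta-class transferases tested fell. Gstt1, which in rodents and humans acts on small halogenated molecules, had 238, 259.8, 271, 291 and 248 CPM in Mboat7 ASO livers, against 452, 432, 416, 389 and 465 CPM in control ASO livers (log2 fold change -0.72 ± 0.07, adjusted p = 7.76e-04, edgeR quasi-likelihood test). The highest Mboat7 ASO liver was well below the lowest control, so the groups did not overlap. Gstt3, its neighbour on chromosome 10, had 47.8, 71.9, 60.1, 63.5 and 52.6 CPM in Mboat7 ASO livers, against 114, 97.6, 177, 165 and 183 CPM in control ASO livers (log2 fold change -1.32 ± 0.18, adjusted p = 0.00175). Control replicates 1 and 2 were the lowest controls for Gstt3, yet both exceeded every Mboat7 ASO liver. Gstt2 had 56.0, 71.9, 58.9, 58.3 and 59.4 CPM in Mboat7 ASO livers, against 71.7, 90.7, 71.5, 76.8 and 93.1 CPM in control ASO livers (log2 fold change -0.41 ± 0.10, adjusted p = 0.00817). The Gstt2 groups touched, because Mboat7 ASO replicate 7 was as high as the lowest controls. The 3 genes lie side by side on the minus strand of chromosome 10, Gstt3 at chr10:75774115-75781414, Gstt1 at chr10:75783813-75798584 and Gstt2 at chr10:75831114-75837424 (GRCm38), and Gstt4, between Gstt1 and Gstt2, held only 1 count in Mboat7 ASO livers and 6 in control ASO livers. In all, 26.0% of the 50-base windows of the Gstt3 transcript also occur in Gm20441, an overlapping gene model, so part of its count is uncertain. With each library's trend over gene length removed, the log2 fold changes were -1.21 for Gstt3, -0.49 for Gstt1 and -0.33 for Gstt2, and all 3 still passed.

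**Figure D2:**
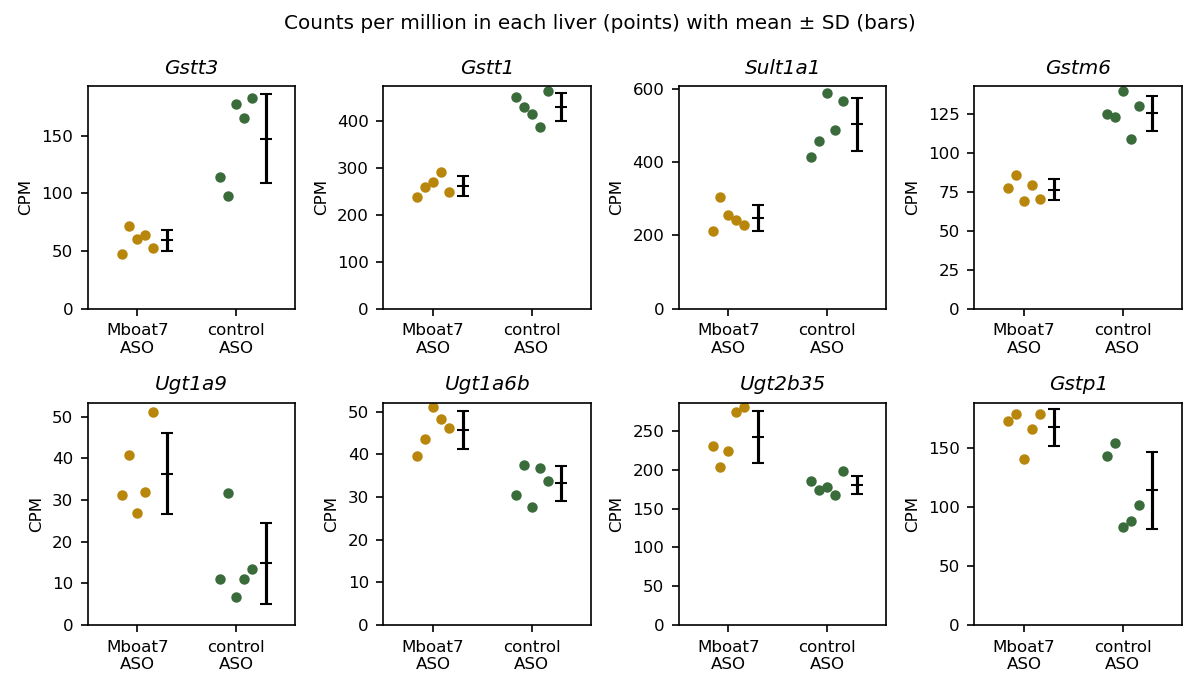
CPM in each liver for 8 members, with the Mboat7 ASO livers on the left of each panel and the control ASO livers on the right, points for single libraries and bars for mean ± SD. Gstt3, Gstt1, Sult1a1 and Gstm6 in the upper row are lower in every Mboat7 ASO liver than in any control, while Ugt1a9 in the lower row has a control, replicate 2, at 31.7 CPM among the Mboat7 ASO livers.

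Of the 7 mu-class genes, which conjugate epoxides and quinones and lie in 1 cluster on chromosome 3, 2 fell and the other 5 did not pass. Gstm6 had 77.5, 85.7, 69.4, 79.3 and 70.4 CPM in Mboat7 ASO livers, against 125, 123, 139, 109 and 130.3 CPM in control ASO livers (log2 fold change -0.71 ± 0.08, adjusted p = 0.00115). Gstm7, the adjacent gene, had 42.7, 58.8, 42.8, 42.7 and 38.3 CPM in Mboat7 ASO livers, against 76.1, 76.4, 76.7, 67.6 and 72.9 CPM in control ASO livers (log2 fold change -0.71 ± 0.10, adjusted p = 0.00177). Both genes were lower in every Mboat7 ASO liver than in any control, although replicate 7 stood above the other Mboat7 ASO livers for Gstm7. Gstm1, the most abundant mu-class gene by reads per kilobase, had 1456, 1475, 1059, 1236 and 1709.8 CPM in Mboat7 ASO livers, against 1163, 2004, 1200.4, 1142 and 1227 CPM in control ASO livers. Gstm1 did not pass (log2 fold change 0.04 ± 0.17, adjusted p = 0.864), and its highest value of all was that of control replicate 2. The remaining genes had log2 fold changes of -0.44 ± 0.17 for Gstm2, -0.13 ± 0.13 for Gstm4, 0.02 ± 0.11 for Gstm5 and 0.47 ± 0.48 for Gstm3. Gstm2 was called lower with DESeq2 (adjusted p = 0.0267) and with the likelihood ratio test (adjusted p = 0.0409).

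The result of Gstm3 turned on a single library. It had 131, 139, 77.7, 61.1 and 128 CPM in Mboat7 ASO livers, against 48.2, 211, 34.1, 45.9 and 49.0 CPM in control ASO livers (log2 fold change 0.47 ± 0.48, adjusted p = 0.458). Every Mboat7 ASO liver was above 4 of the controls, and control replicate 2 was above them all. Without control replicate 2 Gstm3 passed (log2 fold change 1.28, adjusted p = 0.00277). Gsta1, an alpha-class gene, had a far lower level, with control replicate 2 again far above the other controls, at 6.62, 6.42, 2.83, 4.26 and 8.72 CPM in Mboat7 ASO livers, against 1.15, 7.83, 0.429, 1.46 and 1.63 CPM in control ASO livers, and it too passed without that library (log2 fold change 2.29, adjusted p = 0.00201, against log2 fold change 1.21 ± 0.61, adjusted p = 0.134 with it). With every library kept, Gsta1 was also called higher by limma-voom (log2 fold change 1.76, adjusted p = 0.0329). Only 10.3% of the 50-base windows of Gsta1 are unique, since it shares most of them with the gene models Gm3776 and Gm10639 and with Gsta2, which did not pass (log2 fold change -0.20 ± 0.35, adjusted p = 0.671).

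In the alpha, omega, kappa and zeta classes, Gsta3, Gstk1 and Gstz1 fell and the other genes tested did not pass. Gsta3, the cytosolic transferase with the highest level per kilobase and the mouse enzyme known for conjugating the aflatoxin epoxide, had 1438, 1681, 1731, 1845 and 1642 CPM in Mboat7 ASO livers, against 1955, 1682, 2209, 2058 and 2226 CPM in control ASO livers (log2 fold change -0.28 ± 0.09, adjusted p = 0.0332). Control replicate 2 lay within the range of the Mboat7 ASO livers for Gsta3, and the other controls lay above it. The Gsta3 call was a narrow one, lost without Mboat7 ASO replicate 6, 7, 8 or 10 or control replicate 1, 3, 4 or 5 (adjusted p 0.0502 to 0.0809). Gstk1, the kappa-class enzyme of mitochondria and peroxisomes, had 142, 157, 158, 158 and 128 CPM in Mboat7 ASO livers, against 236, 199, 242, 210.1 and 199 CPM in control ASO livers (log2 fold change -0.55 ± 0.08, adjusted p = 0.00205). Gstz1, also known as maleylacetoacetate isomerase of tyrosine breakdown, had 712, 845, 850.0, 883 and 760.3 CPM in Mboat7 ASO livers, against 1007, 927, 1067, 979 and 1005 CPM in control ASO livers (log2 fold change -0.30 ± 0.07, adjusted p = 0.00894). The groups did not overlap for either gene. Gsta4, which conjugates the lipid aldehyde hydroxynonenal, and Gsto1, an omega-class thiol transferase, did not pass (log2 fold change -0.15 ± 0.15, adjusted p = 0.457 for Gsta4, and log2 fold change -0.18 ± 0.07, adjusted p = 0.066 for Gsto1). Gsto1 was called lower with DESeq2 (adjusted p = 0.0321) and with TMM or RLE scaling (adjusted p = 0.0490 for each).

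The membrane-bound transferase Mgst1 had the highest level per kilobase of all members, 3060.0 CPM per kilobase in Mboat7 ASO livers and 3545 in control ASO livers. It had 3438, 3226, 3567, 4052 and 3572 CPM in Mboat7 ASO livers, against 4923, 3784, 4246, 3769 and 3962 CPM in control ASO livers, and did not pass (log2 fold change -0.21 ± 0.09, adjusted p = 0.088). Control replicate 1 was the highest, and the groups overlapped through the lower controls. Without libraries 2 and 9 Mgst1 passed (log2 fold change -0.29, adjusted p = 0.0373). DESeq2 called Mgst1 lower with every library kept (log2 fold change -0.22, adjusted p = 0.0427). Mgst3 did not pass (log2 fold change 0.14 ± 0.19, adjusted p = 0.587).

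Gstp1, the pi-class transferase, was the only Gst gene called higher. It had 172, 179, 140.2, 166 and 179 CPM in Mboat7 ASO livers, against 143, 154, 83.1, 87.8 and 102 CPM in control ASO livers (log2 fold change 0.55 ± 0.17, adjusted p = 0.0239). Controls 1 and 2 overlapped the lowest Mboat7 ASO liver, replicate 8, and the remaining controls were lower. The call was lost without Mboat7 ASO replicate 10 or control replicate 3, 4 or 5 (adjusted p 0.0516 to 0.0541). Its close copy Gstp2 stood near the filter, at 0.645 to 2.34 CPM in Mboat7 ASO livers and 0.215 to 1.33 CPM in control ASO livers, and did not pass (log2 fold change 0.76 ± 0.44, adjusted p = 0.187). The 2 coding sequences differ at 12 of 630 bases, and 37.7% of the 50-base windows of Gstp1 are not in Gstp2. The stretch where they differ most is shown because a 50-base read outside such stretches cannot be given to one gene (GENCODE M21, minus strand, Gstp1 at chr19:4036694-4036753 and Gstp2 at chr19:4040988-4041047, GRCm38). Capitals mark the bases that differ.
Gstp1: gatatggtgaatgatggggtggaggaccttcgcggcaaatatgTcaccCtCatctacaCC
Gstp2: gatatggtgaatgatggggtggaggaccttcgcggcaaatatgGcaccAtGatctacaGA

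The Ugt1 genes lie in 1 locus on chromosome 1 in which each has its own first exon, read into a common set of later exons. Ugt1a1 makes the enzyme that glucuronidates bilirubin, and Ugt1a6 enzymes act on simple phenols. The 8 Ugt1 genes share the last 737 coding bases, 45.9% of the 1605 of Ugt1a1, so most reads can be told apart only over the first exons. The starts of 3 first exons are shown to make that difference visible (GENCODE M21, plus strand, GRCm38, Ugt1a9 at chr1:88070830-88070889, Ugt1a5 at chr1:88166052-88166111 and Ugt1a1 at chr1:88212002-88212061). Capitals mark the start codon.
Ugt1a9: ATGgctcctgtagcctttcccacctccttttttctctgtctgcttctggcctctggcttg
Ugt1a5: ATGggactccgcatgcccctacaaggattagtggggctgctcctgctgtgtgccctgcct
Ugt1a1: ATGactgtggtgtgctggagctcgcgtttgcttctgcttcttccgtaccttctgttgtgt

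The shared part begins with the following stretch, which all of these genes carry unchanged (chr1:88215044-88215103).
Ugt1 shared exon: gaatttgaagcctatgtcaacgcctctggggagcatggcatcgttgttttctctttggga

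Ugt1a6a and Ugt1a6b are nearly one sequence, with 26 differences over 1593 coding bases, and the window with the most of them, 9, is shown (Ugt1a6a at chr1:88138769-88138828, Ugt1a6b at chr1:88107237-88107296). Capitals mark the bases that differ.
Ugt1a6a: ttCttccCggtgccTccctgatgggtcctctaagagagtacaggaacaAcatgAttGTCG
Ugt1a6b: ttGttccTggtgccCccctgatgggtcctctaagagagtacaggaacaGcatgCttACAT

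Of the 5 Ugt1 genes tested 3 rose and the other 2 did not pass. Ugt1a9, whose human counterpart glucuronidates bulky phenols, had 31.3, 40.8, 26.8, 31.9 and 51.1 CPM in Mboat7 ASO livers, against 11.1, 31.7, 6.66, 11.1 and 13.4 CPM in control ASO livers (log2 fold change 1.30 ± 0.35, adjusted p = 0.015). Control replicate 2 was at the level of the Mboat7 ASO livers, and the other controls were at 13.4 CPM or less. Ugt1a6b had 39.5, 43.6, 51.0, 48.2 and 46.2 CPM in Mboat7 ASO livers, against 30.4, 37.5, 27.6, 36.8 and 33.7 CPM in control ASO livers (log2 fold change 0.46 ± 0.09, adjusted p = 0.00491), with no overlap of the groups. Ugt1a6a had 33.8, 44.3, 46.0, 46.9 and 46.5 CPM in Mboat7 ASO livers, against 27.8, 34.0, 28.0, 32.0 and 37.1 CPM in control ASO livers (log2 fold change 0.45 ± 0.11, adjusted p = 0.0082). Mboat7 ASO replicate 6 was the lowest of its group for Ugt1a6a and lay among the controls. Ugt1a1, with most of the locus' counts, had 187, 196, 223, 228 and 234 CPM in Mboat7 ASO livers, against 168, 181, 228, 260.4 and 308 CPM in control ASO livers and did not pass (log2 fold change -0.10 ± 0.15, adjusted p = 0.621), and neither did Ugt1a5 (log2 fold change -0.07 ± 0.09, adjusted p = 0.567). Ugt1a1 varied more among the controls, whose highest value was that of replicate 5, than among the Mboat7 ASO livers. Every 50-base window of Ugt1a6a also lies in a GENCODE transcript of Ugt1a7c, and 19.4% are absent from Ugt1a6b, so the values of these copies are uncertain and need not be independent of each other. The unique share was 19.8% for Ugt1a1, 36.0% for Ugt1a5, 38.0% for Ugt1a9 and 19.3% for Ugt1a6b.

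**Figure D3:**
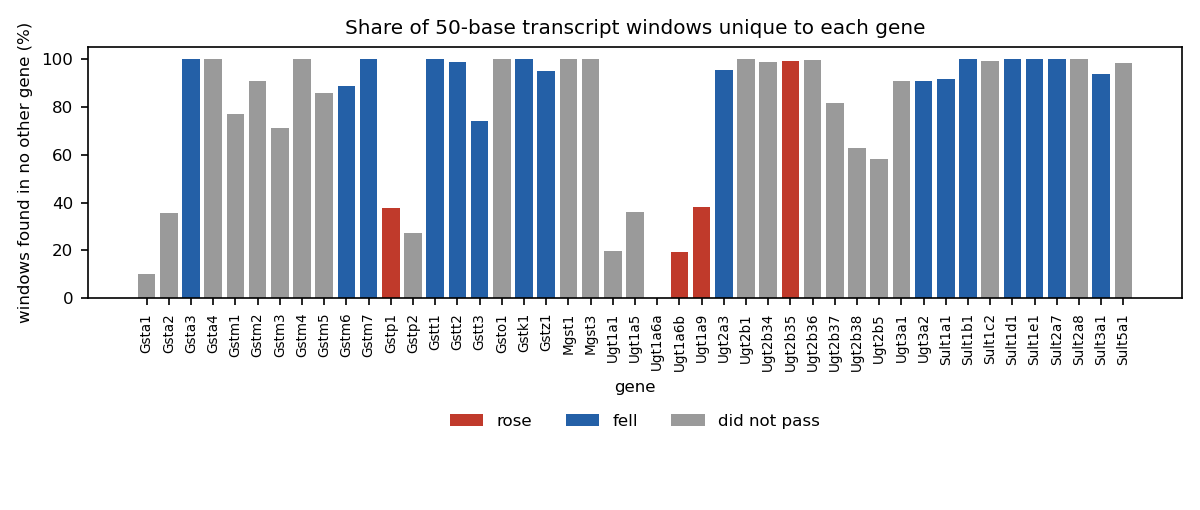
Share of each transcript's 50-base windows (vertical axis, %) that occur in no other GENCODE gene, for the 45 members tested, coloured by call. The shares are 38.0% or less for the 5 Ugt1 genes, Gstp1, Gstp2, Gsta1 and Gsta2, while 15 members are at 100%.

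The Ugt2 genes, which glucuronidate steroids and bile acids, carried most of the Ugt total, and of the 8 tested 1 rose, 1 fell and 6 did not pass. Ugt2b35 had 231, 203, 224, 274 and 281 CPM in Mboat7 ASO livers, against 186, 174, 178, 168 and 198 CPM in control ASO livers (log2 fold change 0.43 ± 0.09, adjusted p = 0.00595), and the groups did not overlap. Ugt2a3, whose human counterpart acts on bile acids, had 169, 234, 241, 239 and 188 CPM in Mboat7 ASO livers, against 277, 237, 304, 266 and 257 CPM in control ASO livers (log2 fold change -0.33 ± 0.11, adjusted p = 0.0347). The Ugt2a3 groups overlapped at control replicate 2, and the call was lost without Mboat7 ASO replicate 6 or 10 or control replicate 1, 3 or 4 (adjusted p 0.0560 to 0.0853). Ugt2b36, the most abundant of them per kilobase, had 725, 785, 772, 855 and 819.6 CPM in Mboat7 ASO livers, against 839.7, 759.9, 854, 778 and 909.9 CPM in control ASO livers and did not pass (log2 fold change -0.07 ± 0.07, adjusted p = 0.468). Ugt2b5, Ugt2b34, Ugt2b1, Ugt2b37 and Ugt2b38 did not pass, with log2 fold changes of 0.01 ± 0.08, 0.09 ± 0.07, -0.09 ± 0.13, 0.09 ± 0.66 and -0.55 ± 0.82 in that order. Ugt2b37 and Ugt2b38 both had less than 5 CPM in every library, and control replicate 1 was the highest for each. Ugt3a2, whose human counterpart transfers glucose or xylose, had 392, 458, 458, 501 and 425 CPM in Mboat7 ASO livers, against 552, 478, 567, 522 and 609 CPM in control ASO livers (log2 fold change -0.29 ± 0.08, adjusted p = 0.0189). Control replicate 2 was the lowest control for Ugt3a2 and lay under Mboat7 ASO replicate 9. Ugt3a1, in the same cluster, did not pass (log2 fold change -0.26 ± 0.12, adjusted p = 0.107).

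Of the 5 Sult1 genes tested 4 fell and 1 did not pass. Sult1a1, the main phenol sulfotransferase, had 210.4, 304, 255, 241 and 228 CPM in Mboat7 ASO livers, against 414, 458, 588, 488 and 566 CPM in control ASO livers (log2 fold change -1.02 ± 0.12, adjusted p = 0.00121). Its lowest control was above the highest Mboat7 ASO liver. Sult1b1, which sulfates thyroid hormones, had 24.5, 33.4, 31.4, 37.5 and 26.6 CPM in Mboat7 ASO livers, against 53.1, 40.2, 62.4, 40.9 and 54.1 CPM in control ASO livers (log2 fold change -0.71 ± 0.14, adjusted p = 0.0047). The Sult1b1 groups did not overlap, though Mboat7 ASO replicate 9 came close to controls 2 and 4. Sult1d1, which in mice sulfates catecholamines, had 113, 138, 121, 132 and 112 CPM in Mboat7 ASO livers, against 144, 137, 217, 208 and 199.6 CPM in control ASO livers (log2 fold change -0.56 ± 0.13, adjusted p = 0.00923). Control replicates 1 and 2 were low for Sult1d1, and replicate 2 lay under Mboat7 ASO replicate 7. Sult1e1, the oestrogen sulfotransferase, was near the detection limit, at 0.46 to 1.58 CPM in Mboat7 ASO livers and 1.18 to 2.98 CPM in control ASO livers (log2 fold change -1.03 ± 0.35, adjusted p = 0.0362), and its call was lost without Mboat7 ASO replicate 6, 8 or 10 or control replicate 2, 4 or 5 (adjusted p 0.0532 to 0.0810). Sult1b1, Sult1d1 and Sult1e1 are neighbours on the minus strand of chromosome 5 (chr5:87513339-87538195, chr5:87554645-87569027 and chr5:87575969-87591594, GRCm38), and their transcripts share no 50-base window. Sult1c2 did not pass (log2 fold change 0.23 ± 0.13, adjusted p = 0.171).

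The hydroxysteroid sulfotransferases of the Sult2 family were carried by Sult2a8, which in mice sulfates bile acids. It had 198, 367, 557, 688 and 246 CPM in Mboat7 ASO livers, against 820.4, 306, 879, 572 and 846 CPM in control ASO livers, and did not pass (log2 fold change -0.74 ± 0.37, adjusted p = 0.129). Both groups were wide, with Mboat7 ASO replicates 8 and 9 among the controls and control replicate 2 among the Mboat7 ASO livers. Sult2a8 passed without control replicate 2 (log2 fold change -0.92, adjusted p = 0.0425) and without Mboat7 ASO replicate 9 (adjusted p = 0.0486). Sult2a7 had 1.07, 0.83, 0.967, 1.50 and 0.789 CPM in Mboat7 ASO livers, against 2.18, 0.834, 2.32, 2.65 and 3.42 CPM in control ASO livers (log2 fold change -1.14 ± 0.33, adjusted p = 0.0193). Control replicate 2 was again at the level of the Mboat7 ASO livers, and the other controls were above them. Sult3a1, an amine sulfotransferase, held 4, 1, 3, 1 and 0 counts in the Mboat7 ASO libraries, against 9, 1, 13, 5 and 35 counts in the control ASO libraries (log2 fold change -2.89 ± 0.88, adjusted p = 0.0237). Control replicate 5 held 35 of its 63 control counts and was the library that brought it over the filter, so it was not tested without that replicate, and it was not called without Mboat7 ASO replicate 10 (adjusted p = 0.0513) or with limma-voom (adjusted p = 0.0694). Sult5a1 did not pass (log2 fold change -0.57 ± 0.49, adjusted p = 0.374).

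The 18 members under the filter held at most 86 counts over the 10 libraries, and 5 of them (Sult1c1, Sult2a4, Sult2a5, Ugt2a1 and Ugt2a2) held 0. Of the rest, Ugt1a7c had 64 counts in Mboat7 ASO livers and 18 in control ASO livers, Ugt1a2 had 31 and 8, and Ugt1a10 had 41 and 45, and the remaining 10 had 17 or fewer in either group. Tested with no filter on low counts, Ugt1a7c (log2 fold change 1.61 ± 0.43, adjusted p = 0.0157) and Ugt1a2 (log2 fold change 1.71 ± 0.53, adjusted p = 0.0308) were called higher, and they share the later exons of the Ugt1 locus.

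Read by library, replicate 6 or 10 was the lowest Mboat7 ASO liver for every member that fell other than Gstm6, for which replicate 8 was. Control replicate 2 was the lowest control for the fallen Gsta3, Gstk1, Gstt3, Gstz1, Ugt2a3, Ugt3a2, Sult1b1, Sult1d1, Sult2a7 and Sult3a1. It was the highest control for the risen Gstp1, Ugt1a6b and Ugt1a9, and it exceeded every Mboat7 ASO liver for Gstm3 and Gstm1. Without control replicate 2, 16 members fell and 7 rose, where 2319 of 12592 genes fell and 3079 rose. Without it and Mboat7 ASO replicate 9 together 18 members fell and 7 rose, where 2200 of 12585 genes fell and 3038 rose.

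**Figure D4:**
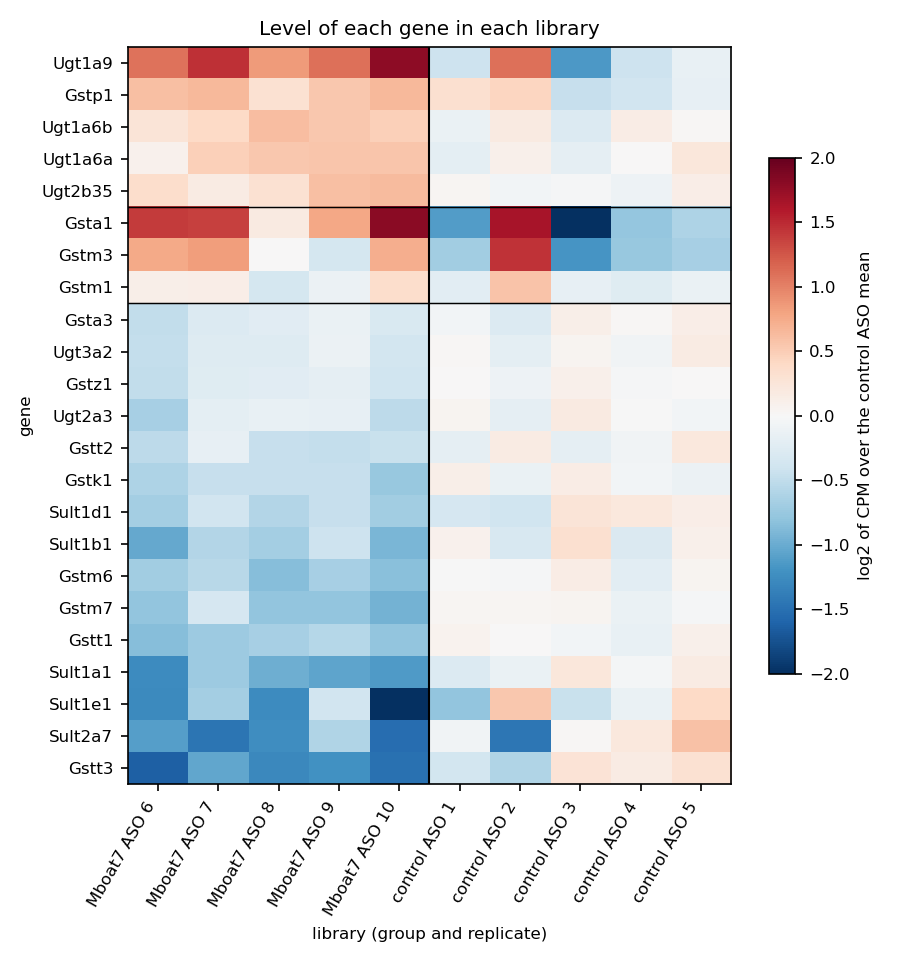
Log2 of the CPM over the control ASO mean (colour, limited to 2 either way) for each library, with the 5 Mboat7 ASO livers left of the line and the 5 control ASO livers right of it, for the 5 members that rose (top), Gsta1, Gstm3 and Gstm1 (middle) and 15 of the 16 that fell (bottom, Sult3a1 left out). Control replicate 2 is red for Gsta1, Gstm3, Gstm1 and Ugt1a9 and blue for Sult2a7.

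How far the members fell depended on what the libraries were scaled to. Markers of other cells rose together in Mboat7 ASO livers, with 12 of 12 pan-leukocyte markers higher (summed 177 to 466 CPM in Mboat7 ASO livers, 114 to 187 CPM in control ASO livers), 9 of 12 Kupffer cell, 7 of 9 stellate cell, 7 of 8 sinusoidal endothelial and 1 of 7 cholangiocyte markers higher, and the rest not passing. Each of these lists was above 0 in every library, and Cftr among the cholangiocyte markers was under the filter. Of 15 hepatocyte markers tested, 12 fell with a median log2 fold change of -0.52, as did 5 of 10 pericentral and 1 of 9 periportal markers. In bulk liver, fewer cells of a type and less RNA per cell cannot be told apart, and the part of cell composition in these results was not tested. Scaled to the hepatocyte markers, which moved the median of all genes by 0.52, 22 members were higher and 3 lower, namely Gstt3 (log2 fold change -0.80), Sult1a1 (-0.50) and Sult3a1 (-2.37). On that scale Gsta3, Gstz1, Gstt2, Ugt2a3 and Ugt3a2 turned positive, while Gstk1, Gstm6, Gstm7, Gstt1, Sult1b1, Sult1d1, Sult1e1 and Sult2a7 stayed negative without passing. With library totals alone, 7 members were higher and 11 lower. Of all 12609 genes tested, 9820 were higher and 87 lower on the hepatocyte-marker scale, and 4670 and 772 with library totals alone.

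Gene length also moved with the groups. The median log2 fold change was -0.19 over genes with transcripts of up to 1978 bases and 0.20 over those of 5240 bases or more, and the members' transcripts were short, with a median of 1858 bases against 3385 over all genes with a length. The difference between short and long genes lay between -0.476 and -0.298 in the Mboat7 ASO libraries and between -0.111 and 0.124 in the control ASO libraries. With each library's length trend removed, 11 of the 45 members were lower and 5 higher with a median of -0.02. Of the 12182 genes tested that way, 1764 were lower and 2038 higher. Gsta3, Sult1e1, Sult2a7, Ugt2a3 and Ugt3a2 no longer passed. Over the 21 alternatives apart from the 2-fold threshold, every one kept the call of Gstt3, Sult1a1, Ugt1a6a, Ugt1a6b, Ugt1a9 and Ugt2b35. Ugt1a6a, Ugt1a6b and Ugt2b35 did not reach the 2-fold threshold (log2 fold changes 0.45, 0.46 and 0.43).

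**Figure D5:**
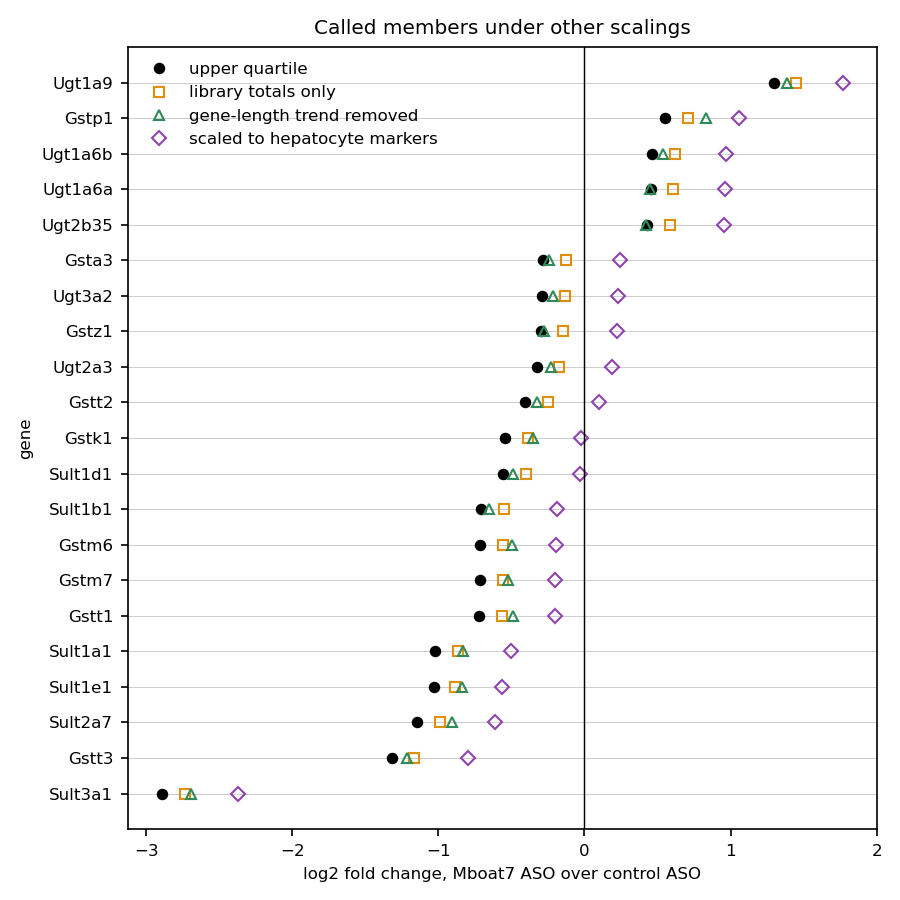
Log2 fold change (Mboat7 ASO over control ASO) of the 21 called members under upper-quartile scaling (filled circles), library totals only (squares), with the gene-length trend removed (triangles) and scaled to hepatocyte markers (diamonds). The members that fell stay left of 0 in every symbol, except for the diamonds of Gsta3, Ugt3a2, Gstz1, Ugt2a3 and Gstt2. Those diamonds lie right of 0.

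Promoters were searched because many members are known targets of NRF2 and AHR. RefSeq promoters (GRCm38.p6, 250 bases before to 50 after the start) were found for 55 of the 63 members. The antioxidant response element core TGACNNNGC, sought on both strands, occurred in 4 of the 55 (7.27%) and in 14.0% of 27025 genes, and the xenobiotic response element core TNGCGTG in 3 of the 55 (5.45%) and in 5.84% of genes. The second motif was found for Gsta2, Sult1d1 and Ugt1a5. The matches of the first are shown with the motif in capitals, for Gsta3 (plus strand, chr1:21240438-21240497) and Gstm7 (minus strand, chr3:107931710-107931769), which fell, and for Gstm5 (plus strand, chr3:107895786-107895845) and Mgst1 (plus strand, chr6:138140445-138140504, where it runs in reverse), which did not pass.
Gsta3: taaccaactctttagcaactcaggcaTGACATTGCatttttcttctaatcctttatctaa
Gstm7: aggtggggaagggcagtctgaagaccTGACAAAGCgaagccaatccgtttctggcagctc
Gstm5: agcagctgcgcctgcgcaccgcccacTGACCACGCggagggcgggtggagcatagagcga
Mgst1: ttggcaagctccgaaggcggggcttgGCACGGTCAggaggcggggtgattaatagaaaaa

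The letters of these windows do not show whether a factor binds there. Readouts of the sensors were counted by direction, where 21.2% of all genes tested rose and 17.3% fell. Of 12 NRF2 readout genes 5 rose and 7 did not pass, Cbr3, a carbonyl reductase, by 2.48 ± 0.59 and Srxn1, sulfiredoxin, by 0.74 ± 0.18 on the log2 scale, with Pgd, G6pdx and Hmox1 beside them, while Gclc, Gclm and Nqo1 were among those that did not. Leaving out 1 library moved this count, to 2 without Mboat7 ASO replicate 6 or control replicate 3 or 4 and to 3 without Mboat7 ASO replicate 7 or control replicate 1 or 5. Cbr3 and Srxn1 kept their calls in all 10 of these fits, while Pgd lost its call in 5, and G6pdx and Hmox1 in 7 each. The level of Cbr3 was low, at a mean of 5.28 CPM in Mboat7 ASO livers and 0.944 CPM in control ASO livers. Of 10 CAR and PXR readout genes 3 fell and 7 did not pass. The log2 fold changes were -2.64 ± 0.45 for Cyp2b10 (means of 0.695 CPM in Mboat7 ASO livers and 4.36 CPM in control ASO livers), -0.82 ± 0.15 for the carboxylesterase Ces2a and -0.28 ± 0.09 for Cyp3a25. The Cyp3a25 call was lost without Mboat7 ASO replicate 6 or 8 or control replicate 1, 3, 4 or 5 (adjusted p 0.0588 to 0.0664), and 5 of these genes were called lower without control replicate 1. Of 5 AHR readout genes 0 passed in edgeR and 0 in DESeq2, with 2 at an unadjusted p under 0.05 in edgeR. Without control replicate 2 AHR readouts had 1 call in each direction, and without control replicate 4 or Mboat7 ASO replicate 9 there was 1 call.

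Among 19 transcription factors and cofactors, Bcl6 (1.49 ± 0.27), Bach1, Nfe2l2 and Ppara rose and Cebpa (-0.39 ± 0.07), Mafg, Stat5b, Foxa2 and Cux2 fell. Of all genes tested 21.2% rose and 17.3% fell, and the count of factors that rose is near that share. Cux2 lay at 0.151 to 0.477 CPM in Mboat7 ASO livers and 0.191 to 1.76 CPM in control ASO livers. It was kept through the control ASO group alone, so its inclusion was tied to its direction. With 1 CPM required in 5 libraries Cux2 was not tested. Several calls of these factors turned on single libraries. The count of 4 higher was 2 without Mboat7 ASO replicate 8 or 9 or control replicate 2, 3 or 4, and the count of 5 lower was 3 without Mboat7 ASO replicate 6, 7 or 10 or control replicate 3 or 5. Ppara lost its call in 8 of the 10 fits that leave out a library and with TMM (adjusted p = 0.0644) or RLE scaling (adjusted p = 0.0597), Nfe2l2 in 6 of those fits, and Foxa2 and Cux2 in 7 each. Without control replicate 2 the adjusted p was 0.0638 for Ppara (log2 fold change 0.27) and 0.0509 for Nfe2l2 (log2 fold change 0.21). Hmox1, Nqo1, Gclc, Gclm and, of the factors, Nfe2l2, Ppara, Stat5b, Foxa2 and Cux2 were chosen after their values were seen.

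The supply of the donor molecules and export were followed through lists of other genes. The counts of these short lists stand beside 21.2% of all genes tested that rose and 17.3% that fell. For glutathione 3 of 10 genes fell and the rest did not pass, namely Chac2 (-0.50 ± 0.09), a glutathione-degrading enzyme, and Cbs (-0.50 ± 0.12) and Cth (-0.49 ± 0.14), which make cysteine, and 1 gene was called higher without control replicate 2. For UDP-glucuronic acid 4 of 8 genes rose and the rest did not pass. Ugdh, which makes it, rose by 0.44 ± 0.16 and the deconjugating Gusb by 0.67 ± 0.12, with Hk1 and Pgm1. Levels in Mboat7 ASO and control ASO livers were low for Hk1 (5.63 and 2.46 CPM) and Pgm1 (8.07 and 4.96 CPM). The more abundant Ugp2 (0.03 ± 0.08) and Pgm2 (-0.07 ± 0.06), chosen after their values were seen, did not pass. The call of Ugdh was lost without Mboat7 ASO replicate 6, 7, 9 or 10 or control replicate 1, 3, 4 or 5 (adjusted p 0.0611 to 0.102) and with the length trend removed (log2 fold change 0.28, adjusted p = 0.153), while Gusb, Hk1 and Pgm1 passed in each of these. For PAPS and sulfate 1 of 9 genes rose, Impad1 (0.50 ± 0.09), a phosphatase of nucleotides, and 2 fell, the sulfite oxidase Suox (-0.43 ± 0.10) and the Golgi PAPS carrier Slc35b2 (-0.19 ± 0.06). Slc35b2 lost its call without Mboat7 ASO replicate 8 or control replicate 3 or 5 (adjusted p 0.0568 to 0.0648), which left 1 gene lower. Of 14 other conjugating enzymes 7 did not pass and 7 fell, among them the methyltransferases Gnmt (-0.74 ± 0.16), Nnmt (-0.91 ± 0.22), Inmt (-0.59 ± 0.17) and Gamt (-0.57 ± 0.08). That count was 3 without control replicate 3, where Inmt was among those lost, and 4 without Mboat7 ASO replicate 10 or control replicate 1. Of 11 export genes, not all of them pumps of conjugates, 3 did not pass and 8 rose. The 4 of lowest p were Abcg2 (0.67 ± 0.12), Abcb1a (0.93 ± 0.19), Abcc1 (1.54 ± 0.34) and Abcc5 (1.04 ± 0.25). Abcc1 and Abcc5 were at only 3.85 and 7.88 CPM in Mboat7 ASO livers. Abcc2 and Abcc3, at 673 and 602 CPM there, rose by 0.42 ± 0.11 and 0.41 ± 0.11. Abcb1b, which also rose, was kept through the Mboat7 ASO group alone, so its inclusion was tied to its direction. With 1 CPM required in 5 libraries, 7 of 10 rose. With the length trend removed, 6 of 11 rose and 1 fell (median log2 fold change 0.52, against 0.67 in the main fit). Abcc2, Abcc3 and Abcb1b were chosen after their values were seen. Scaled to hepatocyte markers, 11 of 11 export genes, 8 of 8 of the UDP-glucuronic acid list and 8 of the 14 other conjugating enzymes were higher. On that scale 9820 of 12609 genes were higher. Gamt (-0.04), Gnmt (-0.23), Nnmt (-0.39) and Inmt (-0.08) stayed negative there without passing.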

How the data were processed

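The authors deposited raw, whole-number read counts by gene symbol, with no normalization. Directional mRNA libraries were read from one end over 50 bases. According to the methods and to the processing notes of the submitters, reads were trimmed with Trim Galore 0.3.3, checked with FastQC 0.11.3 and aligned to mm10 (GRCm38) with STAR, whose gene counting mode leaves out reads that overlap several genes. The strand column taken is not stated in those sources, so overlapping genes are uncertain. According to the methods the gene models were those of UCSC, while the window shares given here used GENCODE transcripts. The shares therefore need not describe how the reads of close copies were assigned. Another 10 value columns, whose names fit no sample label, were left unused.

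Genes with at least 1 CPM in at least 1 library were kept (12609), normalized by upper quartile and tested, Mboat7 ASO against control ASO, with edgeR 4.0.16 (glmQLFit and glmQLFTest, R 4.3.3) and Benjamini-Hochberg adjustment over all genes kept. The standard error is the log2 fold change divided by the square root of F. CPM are counts per 1e6 of the normalized library size, and levels per kilobase divide them by the length of the longest protein-coding GENCODE M21 transcript, which window shares also used, while the gene-length trend took the longest transcript of any type, matched by symbol for 23376 genes. Alternatives used TMM, RLE or no factors, hepatocyte-marker scaling, other filters, DESeq2 1.42.0, limma 3.58.1 (voom), the likelihood ratio test, a 2-fold threshold, a gene-length offset, and leaving out each library or libraries 2 and 9. The members, lists and tests were chosen with earlier results of these data known. Per-library values are given, within each family, for the 3 called members of lowest p and the member with the highest level per kilobase, and of each list the 4 genes of lowest p may be named. Gstm3 and Gsta1, and the genes said to be so, were chosen after their values were seen. Sequences came from GENCODE M21 and from RefSeq promoters.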

Additional observations from a re-analysis of the deposited data

Results flagged for a closer look

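Each group of 5 libraries was searched for a library far from the others of its group, by setting its gap to the nearest library against the whole range of the group. Of 90 such searches over the members tested 9 found a library, and chance alone gives about 1 in 20.

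For the members tested, control replicate 2 stood apart 5 times. It was high for Gsta1 (7.83 CPM, against 0.429 to 1.63 CPM in the other controls), Gstm1 (2004 CPM, against 1142 to 1227 CPM), Gstm3 (211 CPM, against 34.1 to 49.0 CPM) and Ugt1a9 (31.7 CPM, against 6.66 to 13.4 CPM), and low for Ugt2b34 (513 CPM, against 549 to 563 CPM). In the same library Cbr3, an NRF2 readout, was high at 2.34 CPM (0.258 to 0.798 CPM in the other controls) and Cyp3a25 was low at 354 CPM (448 to 469 CPM).

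Among Mboat7 ASO livers, replicate 7 was high for Gstm7 (58.8 CPM, against 38.3 to 42.8 CPM in the others) and for Gstt2 (71.9 CPM, against 56.0 to 59.4 CPM). Replicate 8 was low for Gstm4 (56.6 CPM, against 71.5 to 73.8 CPM), and replicate 6 was low for Ugt1a6a (33.8 CPM, against 44.3 to 46.9 CPM). Of the other genes named, Pgd was high in replicate 6 (80.1 CPM, against 65.8 to 67.8 CPM), Gclc was high in replicate 10 (548 CPM, against 388 to 434 CPM), and Ppara was high in control replicate 5 (624 CPM, against 496 to 522 CPM).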

How the results depend on the processing

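Scaling to hepatocyte markers moved most results. With it, 22 members were higher and 3 lower, with 9820 and 87 of all genes, and the summed levels, -0.22 for Gst and Mgst, -0.04 for Ugt and -0.81 for Sult on the log2 scale, became 0.30 for Gst and Mgst, 0.49 for Ugt and -0.29 for Sult. On that scale Gsta3 (0.24), Gsto1 (0.33), Gstt2 (0.10), Gstz1 (0.22), Mgst1 (0.32), Ugt1a1 (0.42), Ugt1a5 (0.44), Ugt2a3 (0.19), Ugt2b1 (0.43), Ugt2b36 (0.46), Ugt3a2 (0.23), Chac2 (0.028), Cth (0.023), Cbs (0.0090), Suox (0.10), Slc35b2 (0.34), Cebpa (0.14), Mafg (0.21), Stat5b (0.30), Cyp3a25 (0.25) and Gclm (0.48) were positive where they had been negative. The list medians there were 0.35 for glutathione, 0.82 for UDP-glucuronic acid, 0.44 for PAPS, 0.31 for other conjugating enzymes, 1.19 for export, 0.51 for transcription factors, and 0.79, 0.22 and 0.77 for the readouts of NRF2, of CAR and PXR, and of AHR. This scaling sets marker genes that fell to no change by construction, which moves all fold changes upward (median shift 0.52, against 0.16 with library totals alone).

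With library totals alone 4670 genes were higher and 772 lower (85.8% of calls higher, against 55.0% with upper quartile), the sums were -0.0643 for Gst and Mgst and 0.12 for Ugt, and list medians were -0.0030 for glutathione, 0.47 for UDP-glucuronic acid, 0.072 for PAPS, -0.062 for other conjugating enzymes, 0.82 for export and 0.15 for transcription factors. Of the factors 7 were then called higher and 1 lower, 8 NRF2 readouts were higher, and 4 other conjugating enzymes were lower (also 4 with the length trend removed). Past 2-fold, 1 member was higher and 5 lower, of 811 and 84 genes. With the length trend removed the medians were -0.24 for glutathione, 0.20 for UDP-glucuronic acid and -0.025 for PAPS, and without libraries 2 and 9 that for glutathione was -0.10. The cause was not tested.

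Leaving out 1 library at a time gave 4 to 7 members higher and 12 to 17 lower, 1992 to 3079 of all genes higher and 1587 to 2319 lower, and list medians of -0.21 to -0.11 for glutathione and -0.14 to -0.0044 for PAPS. Over single members, with the 2-fold threshold left aside, 44 results under alternatives lost the call and 28 gained it. Another 11 changed sign with a call in one fit or both. The other 858 kept their side of the threshold, of which 41 changed sign with no call in either fit. No paired analysis was possible because the groups share no replicate numbers. Depth limits the 18 members under the filter, which held at most 86 counts over the 10 libraries.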
